A study of Mus musculus with 4 samples.

Results

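Alveolar type 2 (AT2) epithelial cells were selected from the lungs of bleomycin-treated mice by the RNA counts of 13 genes. A cell entered the gate with at least 50 unique molecular identifiers (UMIs, each standing for 1 captured RNA molecule) of *Sftpc*, at least 1 UMI of at least 2 of *Lamp3*, *Slc34a2*, *Etv5* and *Abca3*, and at least 1 UMI of *Epcam* or *Cdh1*. It also had to show 0 UMIs of *Cldn4* (transitional alveolar cells), *Rtkn2* (alveolar type 1, AT1, cells), *Foxj1* (ciliated cells), *Ptprc* (immune cells), *Cdh5* (endothelial cells) and *Pdgfra* (fibroblasts). The gate held 144 of 30860 cells, or 0.467%. These 13 genes are therefore described below and not tested.

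AT2 cells sit in the alveolar wall, where they make pulmonary surfactant, a film of lipid and protein that is stored in lamellar bodies and secreted to keep the air spaces open. They are also the progenitors of the alveolar epithelium. After injury some of them pass through a transitional state, rich in keratin 8, on their way to the flat AT1 cells across which gas is exchanged. Bleomycin damages this epithelium and leads to fibrosis of the lung.

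Single-cell RNA-seq was performed on 2 wild-type (WT) littermates and 2 *Tubb3*-/- mice, taken 14 days after 0.8 U/kg bleomycin was given into the trachea. All 4 mice had bleomycin, and mice between 8 and 11 weeks of age were used in the study. *Tubb3*-/- mice were homozygous for a *Cre* knock-in placed in frame at the start of translation of *Tubb3*, the gene of β-III tubulin. Each mouse gave a whole-cell library, from which erythrocytes were removed by TER-119, and a mural cell-enriched library, depleted of cells carrying CD31, CD45, EpCAM or TER-119 and sorted on MCAM and PDGFRα, and mice were told apart by oligonucleotide tags within 2 pools. The question for AT2 cells was whether their number and their transcripts differed between the genotypes. Within the study's limits of 200 to 7500 genes and at most 15% mitochondrial UMIs, the 8 libraries held 3119 to 4815 cells each, with medians of 9436 to 16495 UMIs per cell. *Tubb3* had 415 and 219 UMIs over all cells of the WT mice against 80 and 68 in the *Tubb3*-/- mice. Levels of *Xist* were 21.1 and 17.0 CPM (UMIs of a gene per 1000000 UMIs of all genes) in replicate 1 of WT and *Tubb3*-/- mice, against 638 and 639 CPM in replicate 2, and *Ddx3y*, on the Y chromosome, ran the other way, at 127 and 99.1 against 6.03 and 4.85 CPM. The libraries of a pool shared 0 cell barcodes, the pools shared 59, and AT2-gated cells shared 0.

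In AT2-gated cells themselves, *Tubb3* was at 0 UMIs in both genotypes. A count of 0 among the 2077185 UMIs of the 93 WT cells allows up to 1.44 CPM (3 counts), and among the 1161032 UMIs of the 51 *Tubb3*-/- cells up to 2.58 CPM. At this depth the targeted gene was not detectable in AT2 cells of any mouse. The *Cre* transcript was also at 0 in these cells, but it had 3 and 1 UMIs over all cells of the *Tubb3*-/- mice, so that its 0 says little.

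Most cells rich in *Sftpc* were kept out of the gate by another of its criteria. *Sftpc* (chr14:70520949-70524081 on mm10, minus strand) encodes surfactant protein C, and 420 cells in limits carried at least 50 UMIs of it. Of these, 101 also had *Rtkn2*, 96 *Pdgfra*, 60 *Cldn4*, 56 *Ptprc*, 50 *Cdh5* and 6 *Foxj1*, while 39 had fewer than 2 of the other AT2 markers and 21 lacked *Epcam* and *Cdh1*. A cell could fail in several ways, and 39 cells failed on *Rtkn2* alone. Among cells that met every other criterion, 5 had 20 to 49 *Sftpc* UMIs, with 43 the highest outside the gate, and 4 had 50 to 99, with 71, 83 and 85 the lowest inside. Members had a median of 3611.5 *Sftpc* UMIs and at most 13200, or a median of 16.3% of all their UMIs. In cells that should not make surfactant the level was low but rarely 0. *Ptprc*-positive cells of the whole-cell libraries had a median of 3 *Sftpc* UMIs at a median depth of 8208 UMIs, and 91.2% of them had at least 1. *Pdgfra*-positive cells had the same median of 3 at a depth of 18170.5 UMIs. Every member lay far above these medians, by the way the members were chosen.

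Of the 144 cells, 66 came from whole-cell libraries and 78 from mural cell-enriched ones, although the latter had been depleted with an antibody against EpCAM. They were deep cells, with a median of 21803.5 UMIs and a range of 3574 to 48922. Per mouse, the gate held 36 and 57 WT cells and 25 and 26 *Tubb3*-/- cells. Median depths per mouse were 22158 and 19784 UMIs in WT and 17334 and 25725.5 UMIs in *Tubb3*-/- mice, so that depth overlapped between the genotypes. Scrublet, which scores cells by their likeness to simulated doublets, marked 2 of the 144, both in mural cell-enriched libraries of WT mice. The following levels were computed from UMIs summed over the AT2-gated cells of a mouse, since cells of 1 mouse are not replicates.

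Genes of the surfactant system that the gate had not used were high in these cells in every mouse. *Sftpb*, which encodes surfactant protein B, was at 6717 ± 136 CPM (SD, n = 4 mice). The highest of the other gated epithelial classes (transitional, AT1, club and ciliated cells, gated in the same manner) was AT1 at 965 ± 415 CPM. The AT1 and transitional gates set no upper limit on *Sftpc*, which was at 20502 and 14387 CPM in them. These classes can therefore hold cells rich in *Sftpc* that failed the AT2 gate on *Rtkn2* or *Cldn4*, and their part in these levels was not tested. *Sftpa1*, a collectin of surfactant, was at 21143 ± 3791 CPM against 2234 ± 1859 CPM in AT1 cells. *Sftpd*, the other surfactant collectin, was at 5451 ± 441 CPM against 1618 ± 504 CPM in transitional cells. *Napsa*, a protease that processes surfactant protein precursors, was at 2306 ± 123 CPM and at most 1078 CPM in any other class of any mouse. *Cxcl15*, a lung chemokine, and *S100g*, a calcium-binding protein, had 5186 ± 949 and 917 ± 231 CPM. For all 6 of these check markers the lowest mouse in AT2-gated cells lay above the highest mouse of each other class. *Sftpb* varied least between mice, from 6632 to 6918 CPM, and *S100g* varied most in relation to its mean, from 633 to 1198 CPM.

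**Figure D1:**
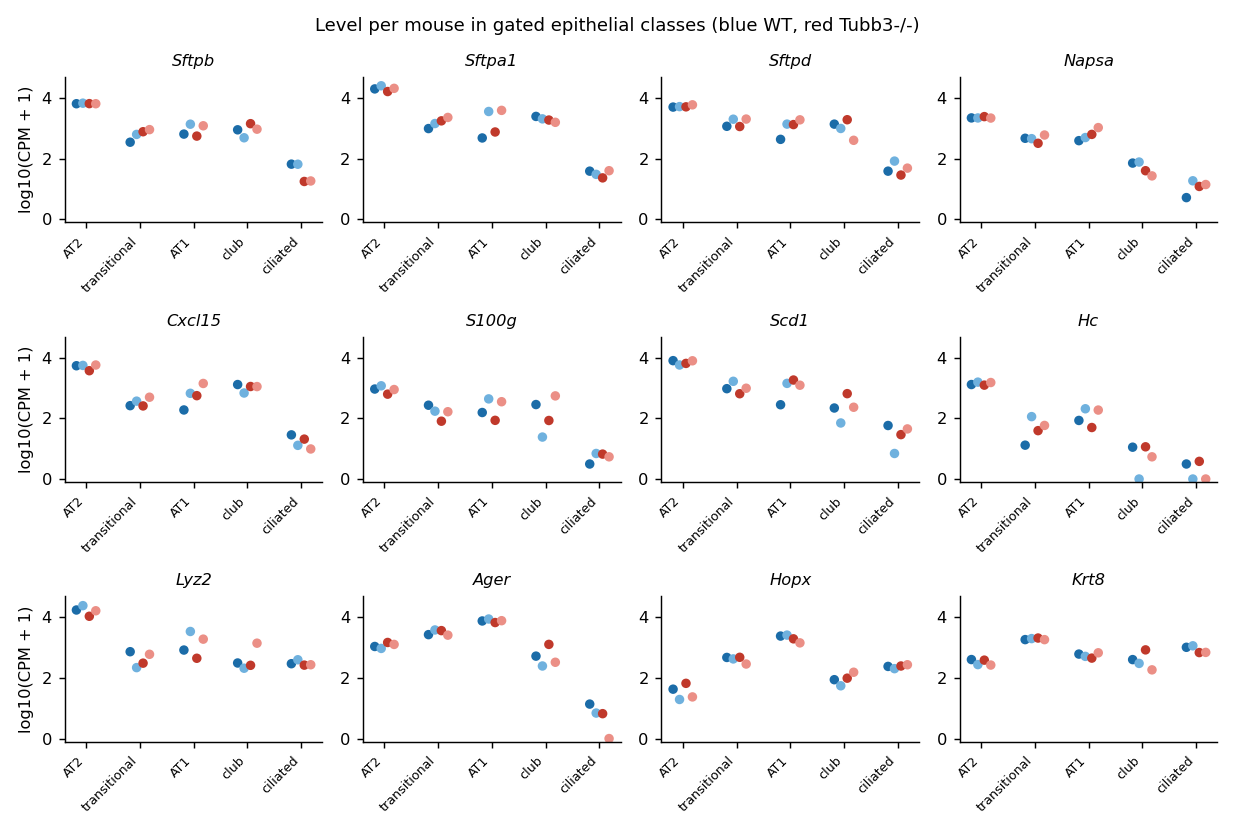
Levels of 12 genes, as log10(CPM + 1), in 5 gated epithelial classes, with 1 point per mouse (dark and light blue, WT replicates 1 and 2; dark and light red, *Tubb3*-/- replicates 1 and 2). The surfactant genes and *Scd1*, *Hc* and *Lyz2* are highest in AT2-gated cells in all 4 mice, whereas *Ager* and *Hopx* are highest in AT1 cells and *Krt8* in transitional cells.

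Genes typical of the AT1 and transitional classes were lower in AT2-gated cells than in those classes. *Ager*, an AT1 receptor of advanced glycation end products, was at 1207 ± 235 CPM in AT2-gated cells against 7790 ± 859 CPM in AT1 cells. It was found in 92.3% of AT2-gated cells thinned to 5000 UMIs (96.5% without thinning), compared with 3.36% and 4.61% of *Pdgfra*-positive cells of the 2 pools at the same depth. *Hopx*, a cofactor typical of AT1 cells, was at 37.2 ± 21.5 CPM against 2114 ± 521 CPM. *Krt8* was at 335 ± 72.8 CPM against 1951 ± 118 CPM in transitional cells, and it was found in 71.8% of thinned AT2-gated cells (92.4% without thinning) against 1.04% and 1.5% of *Pdgfra*-positive cells. Its mean was also below those of club (435 CPM), AT1 (567 CPM) and ciliated cells (896 CPM). The mean of *Hopx* was below those of club (98.4 CPM) and ciliated cells (241 CPM), whereas that of *Ager* was above theirs (599 and 6.10 CPM). Genes of dividing cells were found in few AT2-gated cells. *Top2a*, a topoisomerase needed in mitosis, was found in 0 of 142 thinned cells and in 2.08% without thinning, and *Mki67* in 2.82% of thinned cells, beside 2.40% and 1.6% of *Pdgfra*-positive cells.

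Outside the gate genes, the 15 genes with the largest ratio of AT2 level to the highest other epithelial class (log2 of CPM + 1, genes of at least 100 CPM) included *Acoxl*, *Lrg1*, *Hc*, *Lyz2*, *Sftpa1*, *Chil1*, *Cftr*, *Inpp4b*, *Sftpb*, *Hdac9*, *Il33*, *Scd1*, *Tspan11* and *Dock4*. *Acoxl*, an acyl-CoA oxidase-like gene, led with a log2 ratio of 4.27, at 271 ± 123 CPM in AT2-gated cells and 13.1 ± 13.2 CPM in AT1 cells. *Hc*, which encodes complement component 5, was at 1317 and 1582 CPM in WT and at 1259 and 1536 CPM in *Tubb3*-/- mice, against 133 ± 77.5 CPM in AT1 cells. *Scd1*, the desaturase that makes monounsaturated fatty acids, was at 7134 ± 1120 CPM and was found in 100% of thinned cells. *Il33*, an alarmin cytokine, was at 351 ± 45.3 CPM against 57.1 ± 39.1 CPM in AT1 cells. *Cftr*, a chloride channel, was at 75.2 and 110 CPM in WT and at 161 and 92.6 CPM in *Tubb3*-/- mice, and the genotypes overlapped. *Lrg1*, a secreted acute phase glycoprotein, had 368 and 387 CPM in WT and 452 and 622 CPM in *Tubb3*-/- mice. These genes were picked by their levels in these cells, and their excess over other classes is a description.

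NKX2-1, a homeodomain factor of the lung epithelium, is known to drive surfactant genes through sites with the core CTCAAG. The promoters of *Sftpb* and *Sftpa1* are shown as those of the 2 surfactant protein genes in the AT2-led list, both of which hold this core. The sequences are those of RefSeq on GRCm38.p6, from 250 bases before to 50 bases after the gene start, read 5′ to 3′ on the strand of the gene, with each CTCAAG or its complement in capitals. *Sftpb* lies on the plus strand (chr6:72304360-72304659) and held 2 matches, and *Sftpa1* on the plus strand (chr14:41131538-41131837) held 1.
Sftpb: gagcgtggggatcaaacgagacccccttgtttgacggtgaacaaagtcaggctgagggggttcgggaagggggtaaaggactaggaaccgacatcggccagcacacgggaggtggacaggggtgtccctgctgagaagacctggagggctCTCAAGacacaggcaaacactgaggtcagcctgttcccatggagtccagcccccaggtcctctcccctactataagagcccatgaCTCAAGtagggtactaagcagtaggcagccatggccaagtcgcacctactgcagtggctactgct
Sftpa1: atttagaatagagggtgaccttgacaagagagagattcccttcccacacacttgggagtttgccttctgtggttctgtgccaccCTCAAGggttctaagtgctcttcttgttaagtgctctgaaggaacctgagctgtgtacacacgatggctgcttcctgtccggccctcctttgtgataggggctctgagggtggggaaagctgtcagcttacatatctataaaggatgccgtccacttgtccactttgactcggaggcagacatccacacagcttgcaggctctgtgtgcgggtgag
On either strand, this core was present in 4 of the 15 promoters listed for the AT2-led genes (*Lrg1*, *Sftpa1*, *Sftpb* and *Hdac9*), or 26.7%, compared with 15.9% of all 32851 promoters in the table. Of the 15 genes, 13 were in the table. The forkhead core TGTTTNC was in 20.0% of the same promoters against 20.5% of all. Such matches are letters in a window and do not show binding.

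AT2-gated cells made up a smaller share of the cells in either *Tubb3*-/- mouse than in either WT mouse, although the test could not tell this from the spread between mice. In the whole-cell libraries they made up 0.499% (exact 95% binomial interval 0.291 to 0.798) and 0.898% (0.597 to 1.29) of cells in the WT mice. In the *Tubb3*-/- mice they made up 0.311% (0.166 to 0.531) and 0.231% (0.100 to 0.456). The genotypes did not overlap. The means were 0.698% ± 0.282 and 0.271% ± 0.0563 (SD, n = 2), and the difference gave p = 0.33 in a two-sided exact permutation test, which is the smallest p that 2 against 2 mice can give. The intervals cover counting error only. In the mural cell-enriched libraries the shares were 0.478% and 0.834% in WT against 0.249% and 0.406% in *Tubb3*-/- mice, again without overlap.

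As a share of all gated epithelial cells of both libraries, AT2 cells made up 26.1% and 44.9% in WT mice against 19.4% and 21.8% in *Tubb3*-/- mice. On the cell numbers of the 5 epithelial classes, edgeR gave a log2 fold change of -0.78 (SE 0.48) and an adjusted p of 0.419, so that the lower values were not beyond the spread between mice. Transitional cells went the other way, with a log2 fold change of 0.74 (SE 0.50) and an adjusted p of 0.419, but with -0.05 in the whole-cell libraries alone. The AT2 value depended on which WT mouse was kept. Without WT replicate 1 the AT2 change was -1.12 with an adjusted p of 0.0346, and without WT replicate 2 it was -0.34 with an adjusted p of 0.517.

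**Figure D2:**
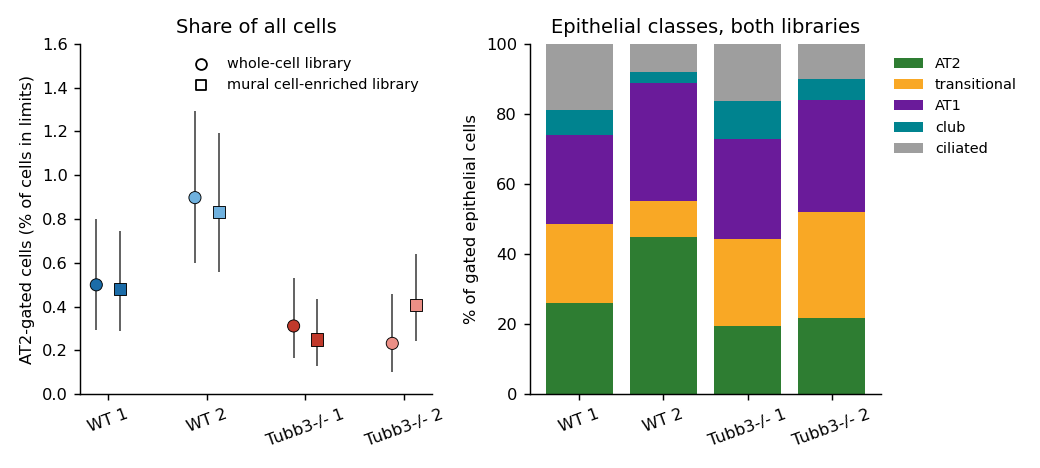
Left, AT2-gated cells as a percentage of the cells in limits for each mouse in the whole-cell (circles) and mural cell-enriched (squares) libraries, with exact 95% binomial intervals as bars, and right, stacked shares of the 5 gated epithelial classes per mouse. The WT mice lie at 0.478% to 0.898% and the *Tubb3*-/- mice at 0.231% to 0.406%, with overlapping bars between several mice.

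The exclusion of *Cldn4* and *Rtkn2* took different shares from different mice. With these 2 genes allowed, the gate held 50 and 72 WT cells and 38 and 52 *Tubb3*-/- cells. Of these, 14 (28%) and 15 (20.8%) of WT cells and 13 (34.2%) and 26 (50%) of *Tubb3*-/- cells carried at least 1 UMI of either gene. Both *Tubb3*-/- mice lay above the WT mice, at 42.1% ± 11.2 against 24.4% ± 5.07 (SD, n = 2), and no test is given, since the gate used these genes. *Rtkn2*, a gene typical of AT1 cells, was found in 22% and 12.5% of WT and in 26.3% and 36.5% of *Tubb3*-/- cells. *Cldn4*, a tight junction claudin of transitional cells, was found in 16% and 8.33% of WT against 13.2% and 19.2% of *Tubb3*-/- cells, which overlapped. After thinning to 10000 UMIs, which left out 4 to 10 shallower cells per mouse, the *Cldn4* shares were 6.67% and 4.84% against 12.5% and 16.7%. The shares for *Rtkn2* and for either gene were not thinned and can depend on depth. Median depths of these cells were 23648.5 and 19611.5 UMIs in WT and 20015.5 and 24672.5 UMIs in *Tubb3*-/- mice. With both genes allowed, the AT2 share of gated epithelial cells changed by a log2 of -0.33 (edgeR adjusted p = 0.826), less than 1 SE (0.46). These shares were 34.7% and 53.7% in WT against 28.6% and 41.9% in *Tubb3*-/- mice, which overlapped. Of all cells, the shares also overlapped in the mural cell-enriched libraries (0.679% and 1.06% against 0.457% and 0.948%). In the whole-cell libraries they did not (0.675% and 1.12% against 0.383% and 0.289%).

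Transcripts were ranked by their variation among AT2-gated cells, without a correction for their mean level. The Fano factor (variance over mean of UMIs, in 142 cells thinned to 5000 UMIs, with 2 shallower cells left out) was highest for *Scgb1a1*, at 637, followed by *Sftpc* (177), *Malat1* (172) and *Lyz1* (107), out of 1370 genes of at least 100 CPM. *Scgb1a1*, the main secretoglobin of club cells, owed this to 1 cell of the whole-cell library of WT replicate 1, which had 6362 of the 8248 *Scgb1a1* UMIs in all 144 cells and 4658 of *Sftpc*. The next highest member had 365. At 5000 UMIs, *Scgb1a1* was found in 95.5% of AT2-gated cells of the whole-cell libraries and in 93.6% of *Pdgfra*-positive cells there, against 31.6% and 21.4% in the mural cell-enriched libraries. The part of free RNA in these UMIs was not tested.

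*Lyz1* split the AT2 cells into a small set with much and a large set with little. It encodes a lysozyme and is a close paralog of *Lyz2*, and the genes are neighbours on mouse chromosome 10 (*Lyz1* at chr10:117287797-117292868 and *Lyz2* at chr10:117277331-117282321, minus strand). In 93 of 144 cells *Lyz1* was at 0, in 38 it had 1 to 35 UMIs, and in 13 cells (9.03%, exact 95% interval 4.89 to 14.9) it had 62 to 1035, with a median of 449. These 13 cells held 95.8% of all its UMIs. They came from every mouse, 4 and 6 cells in WT and 1 and 2 cells in *Tubb3*-/- mice, or 11.1% and 10.5% against 4% and 7.69%. The intervals of these shares overlapped between all mice. In the *Tubb3*-/- mice, all 3 came from whole-cell libraries. *Lyz2* was found in 98.6% of the 144 cells, at 27398 CPM in the 13 *Lyz1*-high cells and 18164 CPM in the others. At 5000 UMIs it was found in 97.2% of AT2-gated cells, and in 80.0% and 25% of *Pdgfra*-positive cells of the whole-cell and mural cell-enriched pools.

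**Figure D3:**
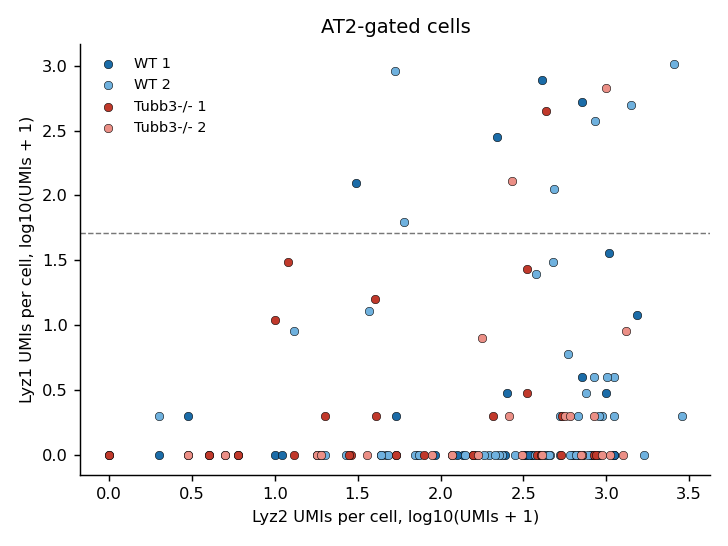
*Lyz1* against *Lyz2* UMIs of each of the 144 AT2-gated cells, both as log10(UMIs + 1), coloured by mouse, with a dashed line at 50 *Lyz1* UMIs. The 13 cells above the line come from all 4 mice and spread over much of the range of *Lyz2*, and most other cells lie at or near 0 for *Lyz1*.

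Reads of near-identical genes can be assigned to the wrong copy, and this was not tested. In *Ptprc*-positive cells, which held 1151198 *Lyz2* UMIs, there were 0.161 *Lyz1* UMIs per 100 of *Lyz2*. The AT2-gated cells outside the *Lyz1*-high set had 0.485 per 100, and the 13 cells had 69.8 per 100. The start regions of the genes are shown since they are alike near the gene start while the transcripts were distributed so differently. Over the longer window from 250 bases before to 50 after the start, 201 of 300 positions were equal (67%). Of its first 100 positions, which are not shown, 77 differed. These counts too were made position by position without gaps, and a shift between the sequences was not looked for. The RefSeq sequences (GRCm38.p6) run from 150 bases before to 50 after the gene start, 5′ to 3′ on the minus strand, at chr10:117292819-117293018 for *Lyz1* and chr10:117282223-117282422 for *Lyz2*, and capitals mark the bases that differ, position by position and without gaps.
Lyz1: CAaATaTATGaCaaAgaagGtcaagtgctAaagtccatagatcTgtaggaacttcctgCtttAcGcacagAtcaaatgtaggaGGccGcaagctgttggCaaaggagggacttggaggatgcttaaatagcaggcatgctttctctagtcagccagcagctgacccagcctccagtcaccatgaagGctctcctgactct
Lyz2: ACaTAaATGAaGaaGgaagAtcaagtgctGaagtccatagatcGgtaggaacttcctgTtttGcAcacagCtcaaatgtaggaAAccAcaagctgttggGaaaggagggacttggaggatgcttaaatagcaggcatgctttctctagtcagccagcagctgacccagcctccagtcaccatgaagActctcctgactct
The sequences were equal at 178 of 200 positions (89.0%), and at all but 1 of the 100 positions nearest the 3′ end. Of the genes with at least 100 CPM and found in at least 50% of the cells of one of the sets, *Cst8*, a cystatin-like gene, had the largest ratio in the *Lyz1*-high cells after *Lyz1* itself, at 132 CPM against 14.7 CPM. *Ptgs2*, the inducible cyclooxygenase, followed, at 342 against 139 CPM. *Sfn*, a 14-3-3 protein high in transitional cells, was at 12.9 against 123 CPM and was the lowest by this ratio. These 13 cells were chosen by their *Lyz1* count after the data were seen, and no test was made.

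*Sprr1a*, a small proline-rich protein of stressed epithelium, was also carried by few cells. It had 24 to 307 UMIs in 4 cells, 1 from each mouse, which together held 91.6% of its UMIs, and at most 7 UMIs in the others. These 4 cells had 603, 1117, 1415 and 7373 *Sftpc* UMIs, against a median of 3620.5 in the rest. *Sfn* was at 261 against 109 CPM, whereas *Crip1* was at 225 against 308 CPM and *S100a6* at 213 against 328 CPM. A different cell, from the whole-cell library of *Tubb3*-/- replicate 2, was the member with the fewest *Sftpc* UMIs (71). It had 38 UMIs of *Upk3b*, a mesothelial uroplakin, when no other AT2-gated cell had more than 1, together with 134 of *Igfbp6*, 77 of *Rarres2*, 66 of *Dcn* and 51 of *Gpc3*. Scrublet marked neither this cell nor the one rich in *Scgb1a1*.

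For the comparison of genotypes, UMIs were summed per mouse over the AT2-gated cells of both libraries. Mural cell-enriched libraries gave 19 of 36 and 29 of 57 WT cells, and 12 of 25 and 18 of 26 *Tubb3*-/- cells. No gene passed the threshold. Of 7450 genes tested with edgeR's quasi-likelihood test, 0 (0%) had a Benjamini-Hochberg adjusted p under 0.05, and 397 (5.33%) had an unadjusted p under 0.05, of which 201 were higher in *Tubb3*-/- mice. DESeq2 called 1 gene, *Lyz1* (adjusted p = 0.00903), with 79 at an unadjusted p under 0.05, and limma-voom called 0, with 390 genes at an unadjusted p under 0.05. The *Tubb3*-/- mice were both higher than either WT mouse for 16.8% of genes and both lower for 16.8%. The values that follow are those of the genes with the smallest unadjusted p among genes of at least 30 normalized CPM, and none of them was called in this edgeR fit.

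*Lyz1* had the smallest p among genes of at least 30 normalized CPM, at 2144 and 2665 normalized CPM in WT and 1057 and 1285 in *Tubb3*-/- mice (log2 fold change -1.04, SE 0.20, edgeR adjusted p = 0.502). The genotypes did not overlap. This level followed the number of *Lyz1*-high cells, and in the whole-cell libraries alone the log2 fold change was 0.39. *Lyz2* had 18061 and 26321 normalized CPM in WT against 10839 and 17302 in *Tubb3*-/- mice (log2 fold change -0.66, SE 0.26, edgeR adjusted p = 0.920), and was likewise lower without overlap. In the AT1 class, which can hold cells rich in *Sftpc* that carried *Rtkn2*, *Lyz1* went the other way. It was at 1.98 and 71.3 CPM there in WT against 313 and 1230 CPM in *Tubb3*-/- mice. How far the cells left out by the gate bear on the *Lyz1* difference was not tested.

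*Clu*, a secreted chaperone listed among transitional genes, was the most abundant of the genes with higher values, at 487 and 600 normalized CPM in WT against 1020 and 889 in *Tubb3*-/- mice (log2 fold change 0.81, SE 0.20, edgeR adjusted p = 0.593). *Retnla*, a resistin-like secreted protein of type 2 immunity, had 25.7 and 67.4 against 118 and 128 (log2 fold change 1.35, SE 0.32). It came from 33 of the 144 cells, and 20.0% of its UMIs lay in 1 cell. Its log2 fold change was 0.03 with *Cldn4* and *Rtkn2* allowed in the gate, 2.79 with at least 20 *Sftpc* UMIs, 0.86 without WT replicate 1 and 2.25 without WT replicate 2. *H2-Q7*, a class I MHC gene with close copies, had 56.2 and 45.8 against 107 and 86.9, and *Tango6*, a gene of Golgi organization, had 18.3 and 23.3 against 57.2 and 44.2. The genotypes did not overlap for any of these genes.

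The other 4 genes with higher values were *Timp2*, *Dcn*, *Rarres2* and *Gpc3*, which encode matrix or secreted proteins. Between 23.6% and 51.7% of the UMIs of each lay in the cell with *Upk3b*. *Rarres2* had 15.9 and 21.6 normalized CPM in WT against 23.7 and 156 in *Tubb3*-/- mice. *Timp2*, an inhibitor of matrix metalloproteinases, had 88.0 and 56.2 against 126 and 218. Without *Tubb3*-/- replicate 2, the log2 fold changes of *Rarres2*, *Timp2*, *Dcn* and *Gpc3* were 0.30, 0.83, 0.55 and 0.51.

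Among the genes with lower values, *Tmem132d*, a transmembrane gene, had 154 and 183 normalized CPM in WT against 69.0 and 91.6 in *Tubb3*-/- mice (log2 fold change -1.06, SE 0.23, edgeR adjusted p = 0.593). *Ephx1*, the microsomal epoxide hydrolase, had 109 and 117 against 57.2 and 53.7, and *Krt23*, a type I keratin, had 80.7 and 83.8 against 39.4 and 36.3. For each of these genes the highest *Tubb3*-/- mouse lay below the lowest WT mouse, and in the whole-cell libraries alone the log2 fold changes were -0.37, -0.31 and -0.58. *Fbxo32*, a ubiquitin ligase subunit, had 47.7 and 41.5 against 19.7 and 12.6 (log2 fold change -1.47, and -0.94 with *Cldn4* and *Rtkn2* allowed), and *Atp6v1c2*, a subunit of the proton pump that acidifies vesicles, had 125 and 137 against 59.2 and 79.0. *Fdps*, which makes farnesyl diphosphate for sterols, had 153 and 188 against 96.6 and 97.9. *Scgb1a1* overlapped, at 8354 and 659 against 233 and 845, and 77.1% of its UMIs lay in the 1 cell described above.

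**Figure D4:**
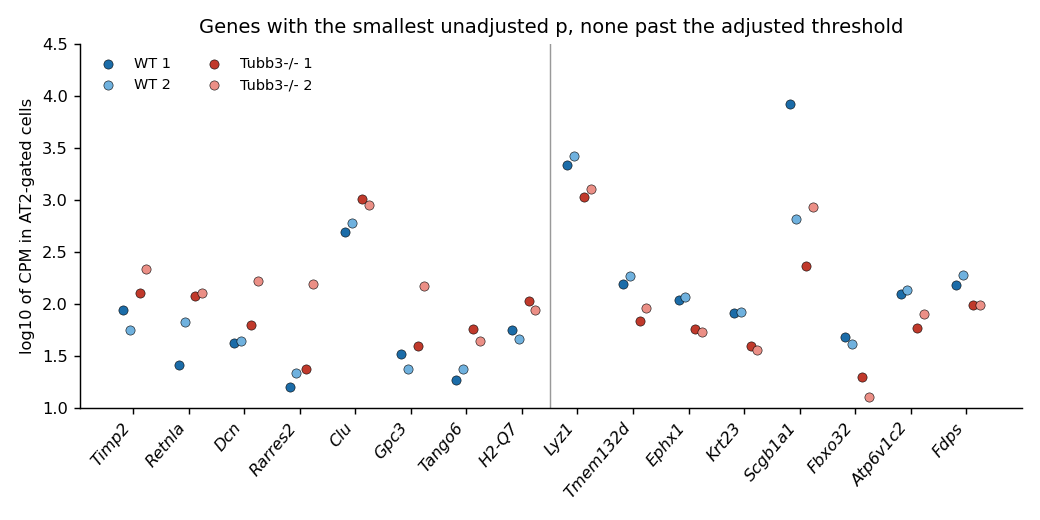
Normalized CPM, on a log10 scale, in the AT2-gated cells of each mouse (blue, WT; red, *Tubb3*-/-) for the 8 genes with higher (left of the line) and the 8 with lower values (right) in *Tubb3*-/- mice that had the smallest unadjusted p. The genotypes do not overlap for any gene but *Scgb1a1*, and no gene passed the adjusted threshold in the main edgeR fit.

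The gene lists are given by their counts, beside a median log2 fold change of -0.003 over all 7450 genes, of which 49.8% were above 0 and 50.2% below. No member of any list was called. In the list of fatty acid and sterol synthesis, 20 of 24 tested genes were below 0 and 11 were lower without overlap (16.8% of all genes were), with a median of -0.29 and 5 genes at an unadjusted p under 0.05. Among its members *Acaca*, the acetyl-CoA carboxylase that starts fatty acid synthesis, had 251 and 213 normalized CPM in WT against 154 and 153 in *Tubb3*-/- mice. *Scd1*, the most abundant member, had 8300 and 6243 against 6512 and 8352 and overlapped. Among surfactant and lamellar body genes outside the gate, 4 of 9 were above 0 and 5 below, with a median of -0.07. *Sftpb* had 6790 and 7412 against 6615 and 6906 normalized CPM, and *Sftpa1* 20951 and 27837 against 16596 and 22236. Both genes overlapped between the genotypes. In the list of AT2 factors and other AT2 genes, 17 of 20 were below 0, with a median of -0.15. Of the 20, 8 were lower without overlap (16.8% of all genes were).

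The AT1 list lay on the other side, with 12 of 13 tested genes above 0 and a median of 0.39. Of the 13, 4 were higher without overlap (16.8% of all genes were). *Ager* had 1126 and 1016 normalized CPM in WT against 1477 and 1339 in *Tubb3*-/- mice (edgeR adjusted p = 0.939). *Cldn18*, a claudin shared by alveolar cells, had 772 and 683 against 765 and 772. In the transitional list 12 of 17 were below 0, with a median of -0.27, although *Clu* was among its members. The 1 p53 target of 14 with an unadjusted p under 0.05 was *Mdm2*, and 9 of the 14 were below 0.

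Genes of MHC class I had 10 of 13 members above 0 and a median of 0.32. Of the 13, 8 were higher without overlap (16.8% of all genes were). *H2-D1*, a classical class I heavy chain, had 792 and 820 normalized CPM in WT against 1140 and 1131 in *Tubb3*-/- mice (log2 fold change 0.49, SE 0.19, edgeR adjusted p = 0.885), and *H2-K1* had 1041 and 1091 against 1325 and 1360. *B2m*, the light chain of class I molecules, had 494 and 552 against 692 and 840. In each case both *Tubb3*-/- mice were above both WT mice. All 6 MHC class II genes tested were above 0, with a median of 0.17, and *H2-Aa* had 851 and 906 against 996 and 1009. In the interferon response list only 9 of 30 genes passed the filter on low counts, 5 of them above 0.

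In the list of immediate-early and heat shock genes, whose transcripts are known to respond to handling of tissue, 15 of 17 were below 0. The median was -0.26, and 8 of the 17 were lower without overlap (16.8% of all genes were). *Fosb* had 912 and 795 normalized CPM in WT against 538 and 507 in *Tubb3*-/- mice, whereas *Fos* had 1678 and 1747 against 1507 and 1623. In the acute phase and NF-kB list, 9 of 13 were below 0, and *Lcn2*, a siderophore-binding protein, had 2052 and 1334 against 2037 and 2887, which overlapped. Among signals to mesenchyme, 8 of 14 were above 0, whereas *Areg* was below 0, at 451 and 340 against 296 and 254. Of 7 tubulin genes tested, 3 were above 0, and *Tubb5* had 68.5 and 70.9 against 65.1 and 83.7. The unfolded protein response list had 9 of 12 above 0 with a median of 0.05, and cell cycle genes had 3 of 3, of 22 listed.

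Markers of other cell types were read in the same sums. The 9 fibroblast markers summed to 2470 and 2393 CPM in WT and 2743 and 3043 CPM in *Tubb3*-/- mice, with *Pdgfra* at 0 by the gate, and all 7 that were tested lay above 0, with a median log2 fold change of 0.36. By kind of library they summed to 1486 CPM in whole-cell and 3463 CPM in mural cell-enriched ones, whose shares of cells differed between mice. The 7 mural markers summed to 848 and 265 against 368 and 307 CPM, the 7 endothelial markers to 37.0 and 40.3 against 35.9 and 37.9 CPM, and the 5 red cell markers to 17.9 and 11.3 against 13.9 and 12.1 CPM. In WT replicate 1, 306 of the 710 UMIs of the mural markers were *Acta2* UMIs of 1 cell. The immune list, at 17740 and 24671 against 11037 and 16725 CPM, was almost all *Lyz2*, which AT2 cells express themselves. The 8 club and ciliated markers summed to 8227 and 658 against 305 and 892 CPM. The part of these transcripts in the differences above was not tested.

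Whether the genotype difference in AT2-gated cells departed from that in other cells was tested with an interaction term. Against the other gated epithelial cells, 0 of 10608 genes (0%) passed edgeR's adjusted threshold, and 557 had an unadjusted p under 0.05. The count was also 0 with DESeq2 size factors. Against all other cells, 63 of 18634 genes (0.338%) passed, 53 of them with the higher difference in AT2-gated cells. The leading genes included *Msln*, *Upk3b*, *Igfbp6* and *Rarres2*, and without the cells rich in *Upk3b* and *Scgb1a1* the count was 27, of which 25 were among the 63. *Chia1*, an acidic chitinase, kept an interaction log2 of 1.91 (edgeR adjusted p = 4.67e-08) in that fit, *Acoxl* 1.44 (adjusted p = 5.81e-05) and *Spp1*, osteopontin, -2.07 (adjusted p = 1.12e-06). *Tango6* kept 1.71 (edgeR adjusted p = 0.00395). In AT2-gated cells themselves, *Spp1* had 67.3 and 66.5 normalized CPM in WT against 51.3 and 67.9 in *Tubb3*-/- mice, which overlapped. *Acoxl* had 195 and 425 CPM in WT against 151 and 314 CPM, which overlapped too. All other cells are a pool of many cell types, including the cells rich in *Sftpc* that the gate left out. The part of the make-up of this pool in these terms was not tested.

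AT2-gated cells of the same mice were also compared between the kinds of library. This comparison was added after the data were seen. With the mouse as a block, 28 of 5257 genes (0.533%) differed between mural cell-enriched and whole-cell libraries in edgeR, 18 higher and 10 lower in the mural cell-enriched ones. The higher genes were led by contractile and matrix genes of smooth muscle, mural cells and fibroblasts, including all 3 mural markers and 4 of 7 fibroblast markers tested. *Acta2*, smooth muscle actin, had 19.9 and 33.4 normalized CPM in WT and 29.7 and 51.9 in *Tubb3*-/- mice in the whole-cell libraries. In the mural cell-enriched libraries it had 892 and 283 in WT and 332 and 237 in *Tubb3*-/- mice (log2 fold change 3.64, SE 0.37, adjusted p = 2.17e-04). Of its 786 UMIs in all AT2-gated cells, 306 (38.9%) lay in 1 such cell of WT replicate 1, which had 196 *Sftpc* UMIs. *Mgp*, matrix Gla protein, had 551 to 966 against 1899 to 2330, and *Myl9*, a myosin light chain, had at most 5.68 against 35.5 to 162.

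The 10 lower genes were led by *Chil3*, a chitinase-like protein of macrophages, at 76.5 to 108 normalized CPM in the whole-cell libraries and 0 to 2.22 in the mural cell-enriched ones (log2 fold change -6.06, SE 0.46, adjusted p = 3.76e-05). *Ccl6*, a chemokine of myeloid cells, had 25.5 to 45.4 against at most 3.95. *Gm42418*, *AY036118* and *Lars2*, which lie over or resemble ribosomal RNA, were also lower. All 28 genes had the same direction in the remaining cells of the libraries. *Chil3*, for example, was at 2074 CPM in all other cells of the whole-cell libraries and at 17.6 CPM in those of the mural cell-enriched ones, and *Acta2* at 611 against 3676 CPM. The part of RNA from other cells in these differences was not tested. Of the surfactant, fatty acid and sterol, AT2, AT1 and MHC lists, 0 members were called, a share near the 0.533% of all genes.

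**Figure D5:**
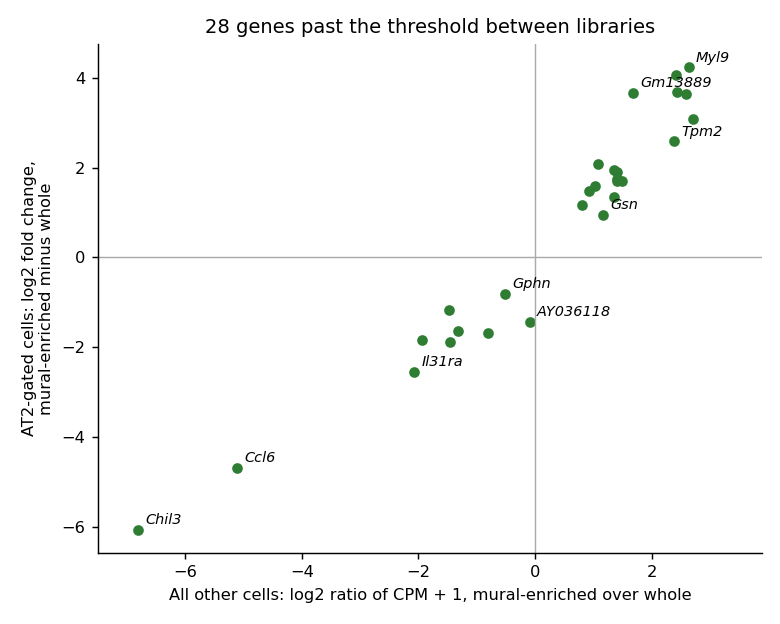
Log2 fold change of 28 genes between mural cell-enriched and whole-cell libraries in AT2-gated cells (vertical) against the log2 ratio of CPM + 1 in all other cells of the same libraries (horizontal). Every point lies in the lower left or upper right part of the plot, from *Chil3* at -6.06 to *Myl9* at 4.23 in AT2-gated cells.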

How the data were processed

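Single-cell RNA-seq counts were taken as the authors deposited them: UMI counts per gene and cell, made by the authors with Cell Ranger 7.1.0 on mm10, split by sample tag and not normalized. Tag counts in the same files only served to check the mouse of each library. Cells with 200 to 7500 genes and at most 15% mitochondrial UMIs were gated as described. Doublets were scored with Scrublet in scanpy 1.11.5 and were kept in the main results. UMIs were summed per mouse and tested with edgeR 4.0.16 under R 4.3.3. Low counts were filtered with filterByExpr, libraries were scaled by TMM, and p-values of the quasi-likelihood test were adjusted after Benjamini and Hochberg across the genes tested, with calls made under 0.05. DESeq2 1.42.0 and limma 3.58.1 were alternatives. A positive log2 fold change is higher in *Tubb3*-/- mice, and normalized CPM is after TMM. Shares were compared with exact permutation tests over mice. The 2 mice per genotype carried separate tags.

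Genes were named by a rule: the gate genes and 6 check markers, the 8 genes with the smallest p in each direction (at least 30 CPM) where fewer than 5 were called, the 2 most abundant members of each list, and the 15 AT2-led genes, of which 1 is not reported here. *Fosb*, *Acaca*, *B2m*, *Mdm2*, *Sprr1a* and the genes named with the subsets of cells, the interaction and the kind of library were chosen after their values were seen. The gate and the lists were chosen with earlier results of these data known. Coordinates are from GENCODE vM21, which matched 32158 of 32286 gene IDs. *Timp2*, *Atp6v1c2*, *Ephx1*, *Fbxo32*, *Fdps*, *Gpc3*, *Rarres2*, *Tmem132d*, *Hc* and *Acoxl* overlap other annotated genes, and whether the counting used strand is not given in the sources used here, so that these counts could include reads of a neighbour.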

Additional observations from a re-analysis of the deposited data

Results flagged for a closer look

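The genotype difference in AT2-gated cells departed from that in all other cells for 63 genes by the interaction term in edgeR, and those also named above follow. The interaction log2 was 2.42 for *Rarres2*, 1.96 for *Gpc3*, 1.38 for *Dcn*, 1.22 for *Timp2* and -1.95 for *Scgb1a1*, and without the 2 cells rich in *Upk3b* or *Scgb1a1* it was 0.91, 1.24, 0.52, 0.57 and -0.02, with adjusted p from 0.121 to 1. It was 1.76 for *Tango6* and -2.03 for *Spp1*, which stayed past the threshold without those cells. Of the AT2-led genes, it was 1.44 for *Acoxl*, 1.42 for *Cftr* and 1.00 for *Hc*, and among genes named with subsets of cells it was -1.95 for *Sprr1a* and -1.09 for *Sfn*, all of which also stayed past it. It was 1.91 for *Chia1*, 4.91 for *Upk3b*, 3.95 for *Msln* and 2.45 for *Igfbp6*, of which *Chia1* alone stayed past it. The fit without those 2 cells kept the cell of WT replicate 2 with 307 *Sprr1a* UMIs, the highest count of any AT2-gated cell. Its part in the *Sprr1a* value was not tested.

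In 4 of 40 levels over 4 mice, of genes that the gate did not use, 1 mouse stood apart from the other 3 by Dixon's 95% criterion, which chance meets in about 1 of 20 groups. *Scgb1a1* was at 8159 CPM in WT replicate 1, where 6362 of its 6832 UMIs lay in 1 cell. In *Tubb3*-/- replicate 1, *Cxcl15* was lowest, at 3774 CPM, and *Napsa* highest, at 2490 CPM. *Sftpb* was highest in WT replicate 2, at 6918 CPM, within a narrow range.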

How the results depend on the processing

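The share of AT2 cells was lower on average in *Tubb3*-/- mice in every setting tried. With *Cldn4* and *Rtkn2* allowed, the shares of gated epithelial cells overlapped between the genotypes. In the whole-cell libraries the difference between genotypes was -0.427 percentage points, and -0.626 to -0.228 when 1 mouse was left out. Over gated epithelial cells the log2 fold change was -0.78, and -1.12 to -0.34 when 1 mouse was left out, passing the threshold in 1 of these fits. The count of genes called for genotype in AT2-gated cells was 0, and it was 46 of 16661 without a filter on low counts, 1 with DESeq2 and 0 to 48 when 1 mouse was left out (0 without WT replicate 1, 2 without WT replicate 2, 20 without *Tubb3*-/- replicate 1 and 48 without *Tubb3*-/- replicate 2). In the latter fits the lone mouse of a genotype is assumed to vary like the pair of the other. Wider and narrower gates, limma-voom, DESeq2 size factors, removal of doublets or of the 2 cells named above, and whole-cell libraries alone each gave 0.

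Against other epithelial cells, the interaction called 0 genes, 29 in whole-cell libraries alone and 1 to 20 when 1 mouse was left out (13 without WT replicate 1, 1 without WT replicate 2, 7 and 20 without *Tubb3*-/- replicates 1 and 2). Against all other cells it called 63, 27 without the 2 cells (an alternative added after seeing the data) and 30 to 62 when 1 mouse was left out (38 without WT replicate 1, 30 without WT replicate 2 and 31 without *Tubb3*-/- replicate 2). The kind of library gave 28 genes, and 14 to 46 when 1 mouse was left out, with 14 without WT replicate 1 and 46 without *Tubb3*-/- replicate 2. Without a filter on low counts, the genes that edgeR called for genotype included *Lyz1*, *Rarres2*, *Dcn*, *Timp2*, *Gpc3*, *Retnla*, *Tmem132d*, *Ephx1*, *Krt23*, *Fbxo32* and *Scgb1a1*. Of the 16 genes named for their small p, 13 kept their direction in all settings. The exceptions were *Lyz1* at 0.39 and *Fdps* at 0.0216 in whole-cell libraries alone, and *Scgb1a1* at 2.00 with at least 20 *Sftpc* UMIs. The causes were not tested. The replicate numbers pair mice of the same sex by *Xist*, but no label says that they mark a litter or day. The correlation of deviations of same-numbered mice was 0.128, and the fit with the replicate block called 0 genes and gave an AT2 share change of -0.75 (adjusted p = 0.225). It changed no call in these fits, and the interactions were not fitted with it.

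Precision is limited by 2 mice per genotype and by 8 to 29 AT2 cells per library. Genes below the filter on low counts, among them most interferon and cell cycle genes, did not enter the test as reported, and entered only the fit without that filter.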
